A study of Mus musculus with 4 samples.

Results

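Apolipoproteins are the protein part of the particles that carry fat and cholesterol in blood. The group described here holds 10 mouse apolipoprotein genes, Apoa1, Apoa2, Apoa4, Apoa5, Apob, Apoc1, Apoc3, Apoe, Apof and Apom, out of 29432 genes measured with a probe set of their own. They were taken by name, matched exactly to the gene symbols of the authors' deposited table, and each of the 10 had 1 probe set. The expression arrays were made from 4 liver samples of untreated C57BL/6 mice aged 8 weeks and killed around midday. The control group, FF, had 2 samples and the KO group, a knockout of Gdown1, also had 2, labelled as biological replicates. The header of the authors' table names these sides f/f, the usual notation for floxed alleles, and Alb-cre, a Cre recombinase driven by the albumin promoter and so expected in hepatocytes. Neither the labels nor the headers give the sex of the animals, and no group with Cre and an intact gene was analysed here, so an effect of Cre cannot be told apart from that of the deletion.

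Liver makes most plasma apolipoproteins. Apob forms the structural shell of very low density and low density lipoproteins, while the smaller apolipoproteins move between particles and steer enzymes and receptors: Apoc3 slows and Apoa5 promotes triglyceride breakdown by lipoprotein lipase, Apoe is a ligand through which the liver takes up remnant particles, and Apoa1 activates the cholesterol-esterifying enzyme encoded by Lcat. Apoa4, carried on chylomicrons and high density lipoprotein, is made mainly by the small intestine and, in rodents, by liver as well. In mouse, Apoa1, Apoc3, Apoa4 and Apoa5 lie side by side on chromosome 9, and Apoe and Apoc1 lie together on chromosome 7.

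The tissue label and the target were checked first. For the 15 hepatocyte markers the summed level, as log2 of the summed linear values, lay at 15.71 and 15.72 in FF and 15.60 and 15.59 in KO. Of them 0 passed the test described below (3 at an unadjusted p under 0.05 in limma, each lower in KO), with a median change of -0.08 and the largest changes for Tat at -0.81 and Cyp2e1 at -0.53. Polr2m, which encodes Gdown1, lay at 7.35 and 7.38 in FF and at 6.35 and 6.18 in KO (log2 values), a fall by 1.10 ± 0.12 (SE). Whether its probes lie in the deleted part was not tested. Across the 41345 probe sets, which are no independent replicates, arrays of 1 group correlated at 0.984 (FF) and 0.986 (KO) and arrays of different groups at 0.972 to 0.976 (Pearson's r). Precision is limited by having 2 arrays a group.

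Apoa4 rose and no other member changed past the test. In FF its log2 values were 8.23 and 8.67, while the KO arrays read 11.72 and 10.99. Both KO arrays lay far above both FF arrays, and KO array 1 stood above KO array 2. The log2 change was 2.90 ± 0.28 (SE, n = 2 arrays a group), or 7.48-fold with a 95% interval of 4.66 to 12.0, and the adjusted p was 0.0154. Here and below the p comes from limma with Benjamini-Hochberg adjustment over all 29432 genes, and a gene is called at an adjusted p under 0.05. Ranked by the size of the rise, Apoa4 stood at place 12 of all genes. The authors' deposited table gave Apoa4 a signed fold change of 7.82. The call ended when any single array was left out, with a change of 2.53 to 3.27 and limma adjusted p of 0.134 to 0.343, and when all probe sets were tested together (adjusted p = 0.0829). In whole tissue a change in the number of cells of a type and a change in RNA per cell cannot be told apart.

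Of the 10 members 1 was called higher and 0 lower. Over all genes 1.77% were called, 0.996% higher and 0.778% lower in KO. The median log2 change of the members was -0.03, beside -0.02 over all genes. The arrays of the groups did not overlap for 4 members, Apoa4 and, with lower values in KO, Apoa1, Apoa2 and Apoc1, against 46.6% of all genes. At an unadjusted p under 0.05 limma passed 3 members, Apoa4, Apoa1 and Apoa2. The share of all genes passing this unadjusted threshold in the same fit was not taken. The unadjusted counts of members, lists and markers therefore have no background beside them and are given as description only. The log2 changes of the 9 members that were not called ran from -0.47 to 0.14, with adjusted p from 0.230 to 0.961. Their 95% intervals together spanned -1.11 to 0.91, and the smallest change called among all genes was 0.72, so a moderate change in some of them was not detectable with these arrays.

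**Figure D1:**
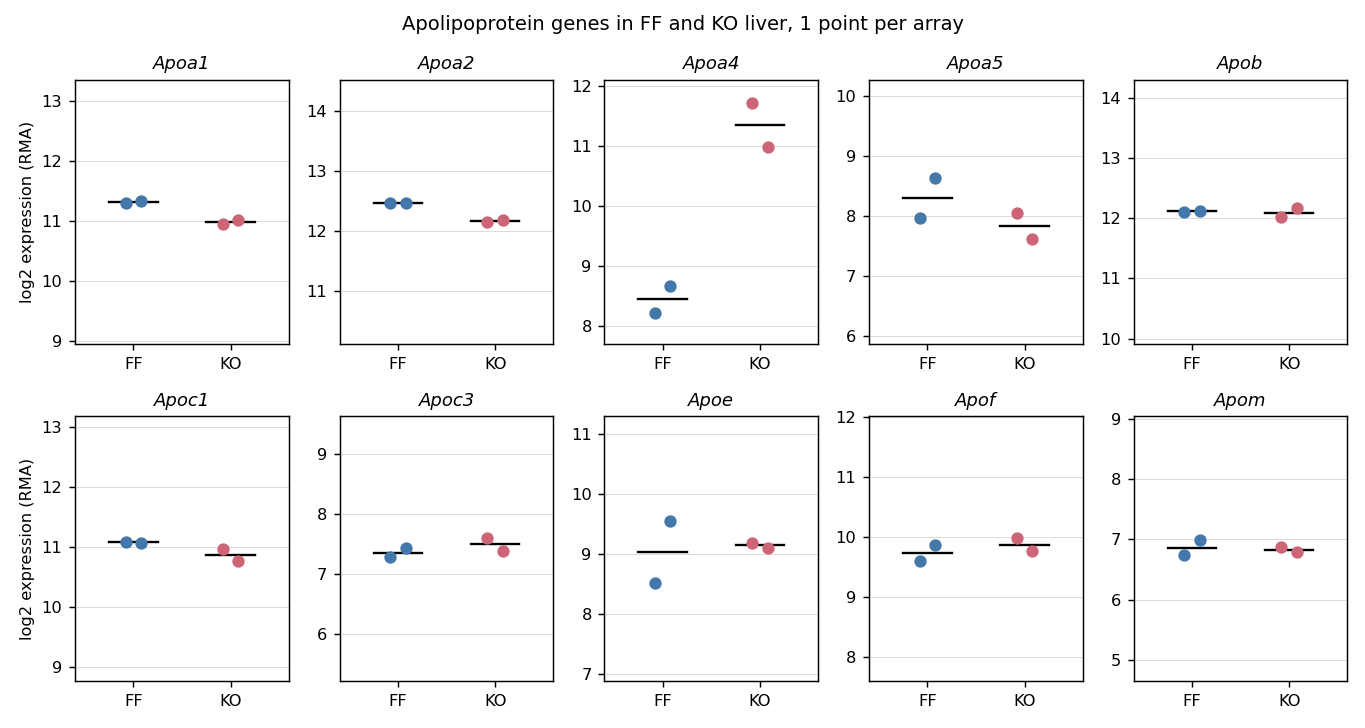
Log2 expression (RMA values, vertical axis) of the 10 apolipoprotein genes on each array, FF in blue and KO in red, with the group mean as a line and every panel spanning the same number of log2 units. Apoa4 is the panel in which the groups stand far apart, at 8.23 and 8.67 in FF against 11.72 and 10.99 in KO, while the FF arrays of Apoe differ by 1.03.

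The rise of Apoa4 was next set against the genes beside it. Apoa4 lies on chromosome 9 from 46240844 to 46243458 (GRCm38.p6), with Apoc3 and Apoa1 on one side and Apoa5 on the other. On each array the log2 value of Apoa4 minus the mean of Apoa1, Apoc3 and Apoa5 was taken. This difference was -0.62 and -0.46 in FF and 2.86 and 2.31 in KO, so that both KO arrays lay above both FF arrays. From -0.54 ± 0.12 (SD, n = 2) in FF it went to 2.58 ± 0.39 (SD, n = 2) in KO, a shift of 3.12 or 8.70-fold. Against Apoc3 alone the shift was 2.76, against Apoa1 alone 3.23 and against Apoa5 alone 3.37. An exact two-sided permutation test over the 4 arrays gave p = 0.333, the smallest p that 2 arrays against 2 allow, so this test could not have passed any threshold.

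The reference gene table lists 15 genes with a start within 250 kb of that of Apoa4, and 8 of them were measured. Apart from Apoa4, 0 of the other 7 were called, and their log2 changes ran from -0.55 to 0.14 with a median of -0.33. Besides the apolipoproteins they are Sik3, a protein kinase gene, at -0.16, Zpr1, a zinc finger protein gene, at -0.33, Bud13, a splicing factor gene, at -0.55, and 4931429L15Rik at -0.02. Zpr1 and Bud13 showed the wide spread seen for Apoa5, next to which they lie. Zpr1 lay at 6.88 and 7.75 in FF and at 7.39 and 6.59 in KO. Bud13 lay at 4.82 and 5.67 in FF and at 5.14 and 4.27 in KO. In all 3 genes FF array 2 was the highest and KO array 2 the lowest.

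**Figure D2:**
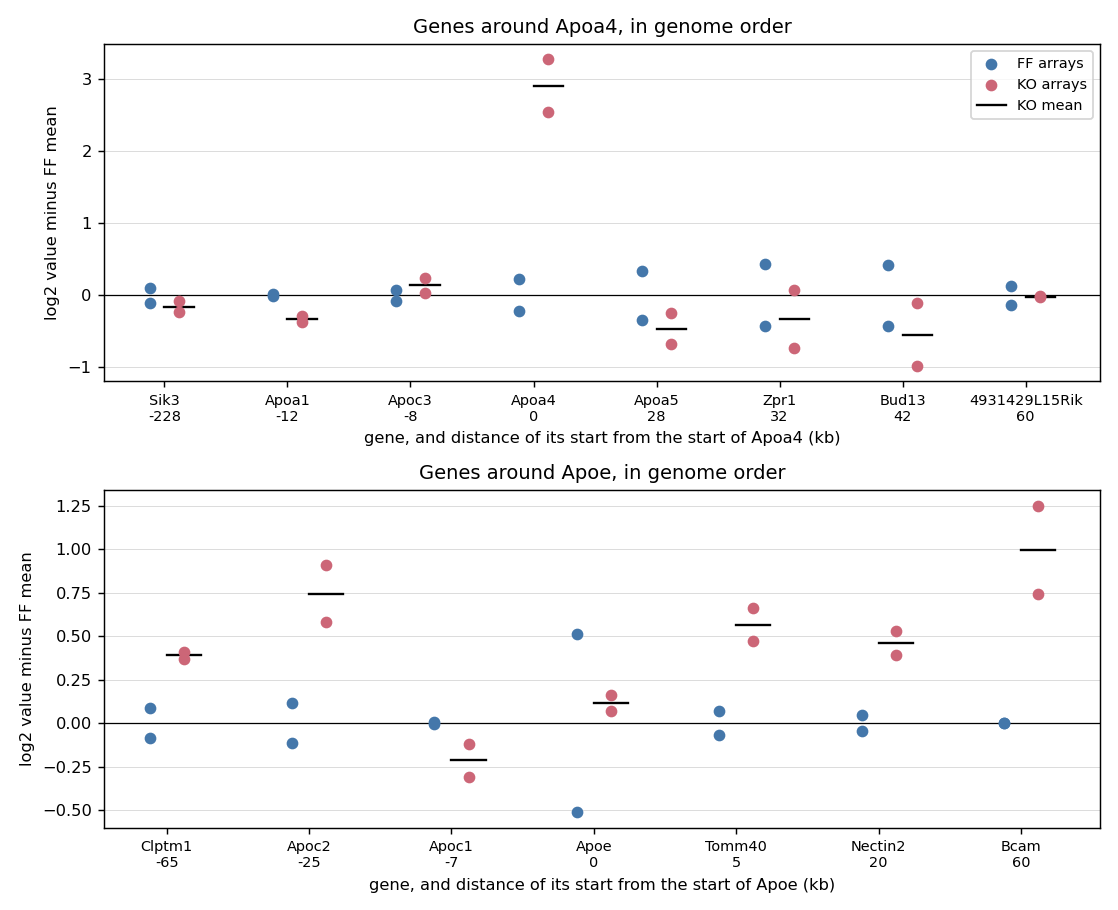
Log2 value minus the FF mean of each gene (vertical axis) for the measured genes around Apoa4 (upper panel) and around Apoe (lower panel), in genome order, with the distance of each start in kb under the name. FF arrays are blue, KO arrays red and the KO mean is a line. In the upper panel Apoa4 stands alone at 2.90 between Apoc3 at 0.14 and Apoa5 at -0.47.

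Gm10680, a predicted gene that may lie in the same stretch, rose as well. Its probe set, picked after its values were seen, lay at 4.26 and 4.03 in FF and at 6.99 and 6.51 in KO. It rose by 2.61 ± 0.19 (SE, limma adjusted p = 0.00835), or 6.09-fold, and as for Apoa4 KO array 1 was the higher one. The authors' deposited table gave Gm10680 a signed fold change of 5.11. Without any single array Gm10680 was not called, with limma adjusted p of 0.134 to 0.300, nor was it with all probe sets tested together (limma adjusted p = 0.0566). The reference table used here holds no position for Gm10680. Its probe set's number falls between those of Apoc3 and 4931429L15Rik, and the stretch between these genes holds Apoa4, Apoa5, Zpr1 and Bud13. Of 17916 pairs of neighbouring numbers whose genes have a known place, 98.9% lay on the same chromosome and strand in genome order. The number of Gm10680 lies apart from those of Apoa1, Apoa4 and Apoa5. By this order it would lie on the other strand than Apoa4, which was not tested. Whether the signal of Gm10680 comes from a transcript separate from that of Apoa4 was not tested.

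The stretches before the transcription starts of Apoa4 and its neighbours are shown because these genes lie together and had unlike changes. RefSeq promoter entries were matched by symbol for 7 members. Apoc3 had no entry and is not shown. Those of Apoa4, Apoa1 and Apoa5 are set on the annotated gene start, and the 250 bases before each start are printed 5′ to 3′ on the plus strand of GRCm38.p6. Capitals mark matches, on either strand, to CAAAGTNCA (a form bound by HNF4), TATAAA (the TATA box), CACGTG (an E-box) and TGACGT (the core of a cyclic AMP response element). None of these matches overlap.
Apoa4, chr9:46240594-46240843: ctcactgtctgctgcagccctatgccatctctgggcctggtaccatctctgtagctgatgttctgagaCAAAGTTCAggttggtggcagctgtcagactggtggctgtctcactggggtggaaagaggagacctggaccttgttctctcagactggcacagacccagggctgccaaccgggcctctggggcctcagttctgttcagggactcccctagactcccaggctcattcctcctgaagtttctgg
Apoa1, chr9:46228380-46228629: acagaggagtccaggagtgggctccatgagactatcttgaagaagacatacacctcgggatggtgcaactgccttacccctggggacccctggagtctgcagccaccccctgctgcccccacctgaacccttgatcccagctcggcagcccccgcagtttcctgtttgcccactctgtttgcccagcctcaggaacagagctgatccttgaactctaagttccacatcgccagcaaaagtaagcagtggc
Apoa5, chr9:46268358-46268607: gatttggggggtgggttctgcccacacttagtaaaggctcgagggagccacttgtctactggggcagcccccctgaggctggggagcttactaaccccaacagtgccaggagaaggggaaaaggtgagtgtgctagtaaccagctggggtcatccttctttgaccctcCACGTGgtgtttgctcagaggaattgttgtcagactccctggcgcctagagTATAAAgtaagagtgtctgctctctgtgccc
The window of Apoa4 holds 1 match, CAAAGTTCA, from 182 to 174 bases before the start. That of Apoa5 holds TATAAA from 31 to 26 and CACGTG from 82 to 77 bases before the start, and that of Apoa1 holds none of the 4 motifs. Among all 32851 RefSeq promoter windows of the same length, 1.19% hold CAAAGTNCA, 12.4% TATAAA, 6.02% CACGTG and 6.47% TGACGT. A match describes letters in this window and is not evidence that a factor binds there. Other spellings of these motifs were not searched, so a window without a match may still hold a site.

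Of the other members carried mainly on high density lipoprotein, Apoa1, Apoa2 and Apom, 0 of 3 were called. Apoa1, its main protein (chromosome 9 from 46228630 to 46230469), lay at 11.30 and 11.32 in FF against 10.95 and 11.02 in KO. The change was -0.33 ± 0.11 (SE), with an unadjusted p of 0.0299 and an adjusted p of 0.230 in limma. Apoa2, the next most abundant protein of these particles (chromosome 1 from 171221564 to 171226379), showed a like pattern at 12.47 and 12.46 in FF against 12.16 and 12.19 in KO. Its change was -0.29 ± 0.11 (SE, limma adjusted p = 0.266). In neither gene did the groups overlap, and the KO arrays differed by 0.07 for Apoa1 and by 0.03 for Apoa2, yet neither passed over all genes. How near they came depended on the setting. When limma let the variance follow mean brightness (a variance trend), the adjusted p was 0.0692 for Apoa1 and 0.0501 for Apoa2. After cyclic loess normalization the limma adjusted p was 0.288 and 0.411. Apom, which carries sphingosine-1-phosphate (chromosome 17 from 35128997 to 35131801), lay at 6.74 and 6.99 in FF and at 6.87 and 6.79 in KO, so the KO values fell between the FF values.

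Apof, known in human plasma as an inhibitor of lipid transfer (chromosome 10 from 128268699 to 128271250), lay at 9.61 and 9.87 in FF and at 9.99 and 9.77 in KO, with overlapping groups. Apob (chromosome 12 from 7977629 to 8016839) lay at 12.11 and 12.12 in FF and at 12.02 and 12.17 in KO. The log2 change of Apob was -0.02, with a 95% interval of -0.32 to 0.28 in limma. The values of Apob and Apoa2 were among the brightest on the arrays, whose highest value was 12.97, and whether their signal was near saturation was not tested.

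Apolipoproteins that govern triglyceride breakdown and remnant uptake were not called either. Apoa5 (chromosome 9 from 46268608 to 46271921) lay at 7.97 and 8.64 in FF against 8.05 and 7.62 in KO. Its FF arrays differed by 0.67, the groups overlapped, and its change was -0.47 ± 0.26 (SE, limma adjusted p = 0.438). That change was -0.80 without FF replicate 1 and -0.13 without FF replicate 2. Apoc3 (chromosome 9 from 46233050 to 46235636) lay at 7.28 and 7.43 in FF and at 7.60 and 7.39 in KO, a change of 0.14 ± 0.13 (SE). Apoc1, a small exchangeable apolipoprotein (chromosome 7 from 19689480 to 19692659), lay at 11.08 and 11.07 in FF and at 10.96 and 10.77 in KO, a change of -0.21 ± 0.12 (SE) without overlap of the groups.

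Apoe could not be resolved in either direction. Apoe (chromosome 7 from 19696244 to 19701310) lay at 8.52 on FF array 1 and at 9.55 on FF array 2, and at 9.19 and 9.10 on the KO arrays, which fell between them. The FF arrays differed by 1.03, a distance that 0.296% of all genes reached or passed, where the median gene had 0.15. The log2 change of 0.12 ± 0.32 (SE, limma adjusted p = 0.909) rested on these arrays: it was -0.40 without FF replicate 1 and 0.63 without FF replicate 2. Macrophages also make Apoe, and their markers lay higher in KO. All 13 macrophage and Kupffer cell markers had a higher mean in KO, with a median log2 change of 0.82 and 0 called (8 at an unadjusted p under 0.05 in limma). Their summed level was 10.19 and 10.31 in FF and 11.32 and 10.69 in KO. The part of these cells in the value of Apoe was not tested.

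**Figure D3:**
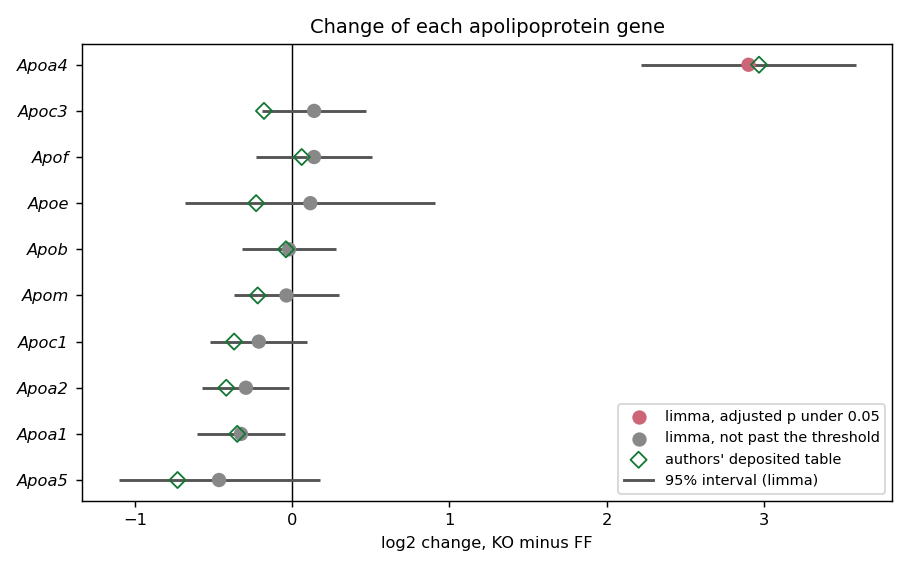
Log2 change of each apolipoprotein gene, KO minus FF (horizontal axis), with the limma 95% interval as a bar, and the change in the authors' deposited table as an open diamond. Apoa4 stands at 2.90, and the other 9 genes lie between -0.47 and 0.14. The diamonds of Apoc3 and Apoe lie on the other side of 0, at -0.18 and -0.23.

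Around Apoe, 2 of 24 other genes measured within 250 kb of its start were called, both higher, where 1.77% of all genes were called. The median log2 change of the 24 was 0.15, and the neighbourhoods of Apoe and Apoa4 were not tested against each other. The called genes were Trappc6a, a subunit of a vesicle-tethering complex, at 1.04 ± 0.12 (SE, limma adjusted p = 0.0260), and the predicted gene Gm19345 at 0.78 ± 0.12 (SE, limma adjusted p = 0.0475). In the authors' deposited table Trappc6a had a signed fold change of 1.13, against 2.06-fold here. Apoc2, the activator of lipoprotein lipase, lay at 8.07 and 8.30 in FF and at 9.09 and 8.76 in KO. Its groups did not overlap, and its change of 0.74 ± 0.16 (SE) did not pass, with a limma adjusted p of 0.0985. A further probe set, shared by Apoc4 and Apoc2, lay lower in KO by its mean, with a log2 change of -0.80, so no direction is given for Apoc2. Tomm40, a mitochondrial import channel gene next to Apoe, was at 0.57 and Bcam, an adhesion molecule gene, at 0.99, neither of them called.

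Lists of lipoprotein genes and their regulators were read in the same fit. They were written with earlier results of these data known, the apolipoprotein result among them. Together they held 125 measured genes, the member Apoa5 among them, of which 3 rose and 7 fell. That is 8% of them, where 1.77% of all genes were called, and their median log2 change was -0.02, as over all genes. The share over all genes includes dim genes, and leaving out the dimmer 50% moved the called genes from 522 to 850. More calls among fewer genes make the share called there higher than 1.77%, so the 8% is not to be read against 1.77% alone. A share over genes of like brightness was not taken. Leaving out any single array ended all 10 calls, and so did the testing of all probe sets together, while each of the 10 kept its direction there.

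Among further apolipoprotein and related genes 1 of 21 fell and 0 rose, with a median of -0.05. The gene that fell was Apol9b, of a family induced by interferon, from 7.33 and 7.49 in FF to 6.17 and 5.42 in KO. Its change was -1.61 ± 0.25 (SE, limma adjusted p = 0.0475), and its close paralog Apol9a, whose probes may share transcripts with it, was at -1.10 and not called. Saa1, an acute phase apolipoprotein of high density lipoprotein, spread widely in FF, at 5.61 and 6.89, against 4.82 and 4.77 in KO, and was not called.

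Genes of lipoprotein assembly and secretion gave 2 falls and 0 rises among 23, with a median of 0.14. Sort1, whose product sorts Apob-containing particles inside the hepatocyte, fell by 1.06 ± 0.16 (SE, limma adjusted p = 0.0450) on the log2 scale. Soat2, which esterifies cholesterol for secretion, fell by 0.80 ± 0.12 (SE, limma adjusted p = 0.0457). Mttp, the transfer protein that loads lipid onto Apob, was at 0.32 and not called.

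Enzymes that remodel lipoproteins in plasma were called in both directions, 2 higher and 1 lower of 14, with a median of 0.06. Lcat, which Apoa1 activates, rose by 0.91 ± 0.12 (SE) from 10.13 and 10.26 in FF to 11.08 and 11.13 in KO (limma adjusted p = 0.0307). Lpl, the lipoprotein lipase that Apoc2 activates and Apoc3 restrains, rose by 2.09 ± 0.21 (SE, limma adjusted p = 0.0168). Lipc, the hepatic lipase, fell by 0.98 ± 0.12 (SE, limma adjusted p = 0.0295). Their groups stood clearly apart, with each KO array beyond both FF arrays.

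Of 17 genes for receptors and clearance 1 rose and 1 fell, with a median of 0.02. Cd36, a fatty acid and lipoprotein receptor, rose by 0.94 ± 0.13 (SE, limma adjusted p = 0.0350).

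**Figure D4:**
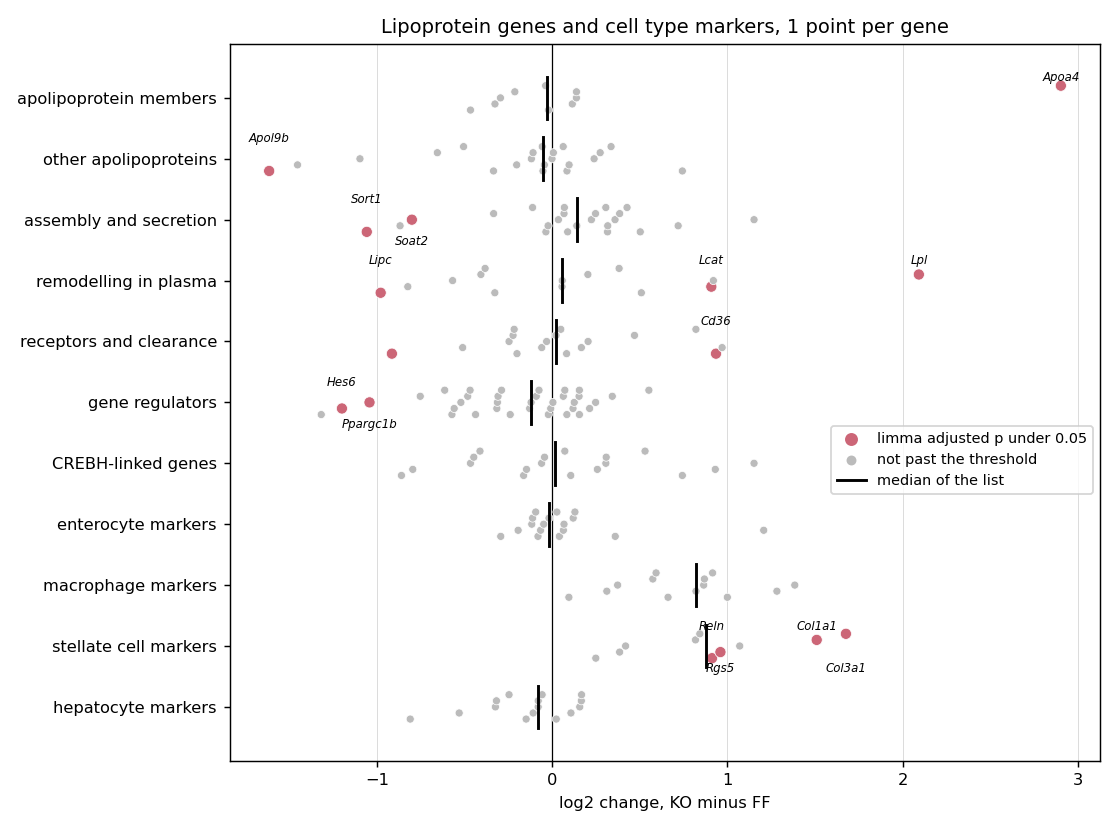
Log2 change, KO minus FF (horizontal axis), of every measured gene of the apolipoprotein group, of 6 lists of lipoprotein genes and regulators and of 4 lists of cell type markers, 1 point a gene, with called genes in red, named except 1 of the receptor list, and list medians as black lines. The list medians lie near 0, except 0.82 for macrophage and 0.88 for stellate cell markers.

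Known regulators of apolipoprotein genes showed 2 falls and 0 rises among 35, with a median of -0.12. At an unadjusted p under 0.05 limma passed 13 lower and 2 higher, counts without a share of all genes beside them. Their log2 changes ran from -1.32 to 0.55, and neither of these extremes was called. Creb3l3 encodes CREBH, a liver transcription factor known to activate Apoa4. It lay at 8.08 and 8.33 in FF and at 8.09 and 8.46 in KO, a change of 0.07 ± 0.17 (SE) with overlapping groups. Hnf4a, a nuclear receptor that acts on most apolipoprotein promoters, was at -0.13, and Ppara, the receptor targeted by fibrates, at -0.07. The genes that fell were Hes6, a transcriptional repressor, by 1.20 ± 0.14 (SE, limma adjusted p = 0.0221), and Ppargc1b, a coactivator of lipid secretion genes, by 1.04 ± 0.12 (SE, limma adjusted p = 0.0214). Of 18 genes linked to CREBH 0 were called (limma, 4 higher and 4 lower at an unadjusted p under 0.05), with a median of 0.01. Over all genes 1.77% were called, so 0 of 18 is near that share. The list holds Creb3l3 itself and leaves out Apoa4, which was called, so the 0 does not cover every gene that CREBH is known to activate. The largest changes in this list were those of the lipid droplet genes Cidec at 1.15 and Fitm2 at 0.93. In the authors' deposited table Cidec had a signed fold change of 7.43, against 2.22-fold here. Fitm2 had 1.45 there, against 1.91-fold here. Array values show transcript levels only, so the processing of CREBH protein was not measured.

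Markers of other cells were read beside the rise of Apoa4. Of 17 enterocyte markers, which would mark intestine, 0 were called (limma, 2 higher and 0 lower at an unadjusted p under 0.05), with a median of -0.02. The largest changes were those of the sugar transporter gene Slc5a1 at 1.21 and of Fabp2 at 0.36. In both groups 12 of the 17 had means under 2.82, the 95th percentile of 1127 olfactory receptor genes, a guide to background signal, among them Vil1, Cdx2, Lct, Sis and Alpi. Their summed level was 9.34 and 9.38 in FF and 9.41 and 9.52 in KO, carried mainly by Dpp4 and Fabp2, which liver also expresses. Among all genes 1.77% were called, 0.996% higher in KO, as a share to set beside the marker counts. Stellate cell markers lay higher in KO, with 4 of 10 called higher, namely Col3a1, Col1a1, Rgs5 and Reln, and a median of 0.88. Their summed level was 10.57 and 10.41 in FF and 11.51 and 11.25 in KO. Against the FF mean, the medians on KO arrays 1 and 2 were 1.00 and 0.74 for stellate, 0.99 and 0.42 for macrophage, 0.70 and 0.25 for cholangiocyte and 0.16 and -0.23 for lymphocyte markers. These medians were, like Apoa4, higher on KO array 1, though single markers such as Col1a1, at 6.09 and 6.19, were not. The same order held for hepatocyte (-0.06 and -0.08), sinusoidal endothelial (0.22 and 0.19), enterocyte (0.02 and -0.04) and adipocyte markers (0.01 and -0.11). It was thus shared by every marker list and is not particular to any cell type. Marco at 1.38 and Adgre1 at 1.28 had the largest changes among macrophage markers. Of cholangiocyte markers 0 of 8 were called, with a median of 0.46 and the largest changes for Epcam at 1.65 and Spp1 at 1.48. Of sinusoidal endothelial markers 0 of 10 were called, with a median of 0.20, led by Lyve1 at 0.66 and Pecam1 at 0.32. Adipocyte markers had 0 of 7 called and a median of -0.02, with Retn at 0.23 and Cfd at -0.14, and lymphocyte markers 0 of 10 and a median of -0.03, with Ptprc at 0.89 and Cd4 at -0.21. At an unadjusted p under 0.05 limma passed 4 cholangiocyte, 3 endothelial, 0 adipocyte and 1 lymphocyte markers, all higher in KO. The part of these cells in the value of Apoa4 was not tested.

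The genes whose 4 array values, each minus the FF mean, lay nearest to those of Apoa4 were found by Euclidean distance over all genes. Predicted, RIKEN, small RNA, olfactory receptor and vomeronasal receptor genes were left out by their symbols. The 5 nearest were then Ccnd1 for cyclin D1 at a distance of 0.26, Gria3 for a glutamate receptor subunit at 0.56, Pls1 for an actin-bundling protein at 0.63, Eda2r for a receptor of the TNF family at 0.77 and Slc34a2 for a phosphate transporter at 0.79. Ccnd1, the nearest of all genes, lay at 4.997 and 5.79 in FF and at 8.58 and 7.90 in KO. Gm10680 was the nearest of all but 5 genes, at 0.66. With 4 arrays such likeness rests on the size of the rise and on which array of a group was higher.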

How the data were processed

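Total RNA of 4 liver samples was hybridised to MoGene 2.0 ST arrays. Per the submitters' processing notes, the authors made the deposited log2 values with RMA in Affymetrix Expression Console. RMA forces 1 distribution on all arrays, so a change in total RNA cannot be seen, and it compresses changes of dim and very bright probe sets. The authors' deposited table holds, per the file headers, log2 averages and a signed fold change, treated as a score, and gave the gene symbols. Its normalization is not stated there, and its log2 averages differ from those of the value table.

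Of 41345 probe sets 29945 had 1 symbol and gave 29432 genes, each read from the probe set with the highest mean. KO minus FF was fitted over all genes with limma 3.58.1 in R 4.3.3 (lmFit, eBayes with default settings, no block and no filter), with 3.79 prior and 2 residual degrees of freedom. The labels call the samples biological replicates. No batch is given in the labels. Intervals are 95% intervals of the moderated test. The fit was tested on simulated data. Permutation tests enumerate all assignments of the 4 arrays.

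The members and lists were chosen with earlier results of these data known. Genes named are the members, per list up to 4 called genes a direction or the 2 largest changes where none was called, neighbours within 250 kb, the 5 nearest to Apoa4, and a few picked after their values were seen (Gm10680, Apol9a, Saa1, Mttp). An individual result among the receptor and clearance genes is not reported here. Coordinates, promoters and neighbours are from RefSeq (GRCm38.p6). The header's annotation names mm10, a build of the same assembly.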

Additional observations from a re-analysis of the deposited data

How the results depend on the processing

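Apoa4 was called at 2.90 and stayed called with median centring, cyclic loess, variance trends, averaged probe sets and without the dimmer 50% of genes. It lost the call with the replicate number as a block (2.90, adjusted p = 0.104) and with all probe sets tested together (2.90, adjusted p = 0.0829), which left 0 members called in each case. Both settings also ended all 10 calls in the lipoprotein lists. Without any single array 0 members were called (1 to 2 at an unadjusted p under 0.05 in limma), and the change of Apoa4 ran from 2.53 to 3.27 with adjusted p from 0.134 to 0.343. 1 array then stands for a group and is assumed to vary like the other. The labels do not pair the animals, and the deviations of same-numbered arrays correlated at -0.0064 over genes. A single value over all genes cannot show whether same-numbered arrays shared a batch, which was not tested. The excess of Apoa4 over its neighbours ran from 2.76 to 3.40 over 14 alternatives. Some of these cannot alter it and returned 3.12: median centring, the replicate block, averaged or all probe sets, and leaving out dim genes.

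Over all genes 522 were called. The count was 30 with the replicate block, 42 with all probe sets, 850 without the dimmer genes, 975 with a robust variance trend, 1235 at an adjusted p under 0.1, and 0 without any single array (3364 to 3958 at an unadjusted p under 0.05 in limma).

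Of 117 values of the other 9 members under the alternatives, 110 kept their direction. The replicate block, the variance trends and leaving out dim genes cannot alter a member's log2 change. Nor can averaging or testing all probe sets, since each member has 1. The agreement under those settings was therefore fixed in advance. Signs turned for Apob with cyclic loess (0.0429), for Apoc3 and Apoe in the authors' deposited table (-0.18 and -0.23) and with single arrays left out, where Apob ran from -0.10 to 0.0580, Apoe from -0.40 to 0.63 and Apom from -0.16 to 0.0842. The cause was not tested. With single arrays left out Apoa5 ran from -0.80 to -0.13, Apoc1 from -0.31 to -0.12, Apoc3 from 0.03 to 0.24 and Apof from 0.0052 to 0.27. No table gives a p for the authors' averages, so calls could not be counted there.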

Other observations

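Apoc2 had a further probe set that the authors' deposited table assigns to Apoc4 and Apoc2 together and that entered no count above. It lay at 9.81 and 9.94 in FF and at 9.24 and 8.92 in KO, a log2 change of -0.80 ± 0.16 (SE), while the probe set of Apoc2 alone had 0.74 ± 0.17 (SE) in the same fit over all probe sets. Neither passed there, with limma adjusted p of 0.164 and 0.204. In the authors' deposited table their signed fold changes were -2.26 and 1.83. The probe sets thus lay on opposite sides of 0 in both tables, and the direction of Apoc2 depends on which one is read. Which transcript each detects was not tested.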
